A study of Mus musculus with 14 samples.

Results

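The genes described here are 28 genes of cholesterol synthesis and its SREBP control, read in jejunal RNA of 14 mice. They were chosen by name, as 19 enzymes of the pathway, the sterol carrier Stard4 and 8 genes that control the SREBP transcription factors. Each gene was read from the probe set with the highest mean among those annotated to that gene alone. Of the 28, 26 had such a probe set (17 enzymes, Stard4 and all 8 control genes), and all 26 were among the 18010 genes bright enough to be tested. For Acat2, no probe set of its own was named, and Idi1 shared its only probe set with another gene symbol. Both are not analysed here.

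The study compared 7 mice with wild-type LRH-1 (WT) with 7 mice carrying LRH-1 K289R. LRH-1 is a nuclear receptor of liver and gut, encoded by Nr5a2, and K289R exchanges a lysine at which the small protein SUMO is attached for arginine. All mice were 19 to 21 weeks old, ate freely up to collection at 7 am, and gave 1 Affymetrix array per jejunum. The labels call the arrays biological replicates. They do not say whether the mice carried K289R on 1 or both alleles, or give sex, strain, litter or cage per mouse. The title of the series speaks of hepatic data, while every sample label says jejunum. The 9 measured markers of mature enterocytes had a mean log2 intensity between 12.82 and 13.10 on all 14 arrays, and the 6 hepatocyte markers one between 7.14 and 7.55. Nr5a2 RNA itself was at 10.32 in WT and 10.18 in K289R (log2 difference −0.14, SE 0.092, limma adjusted p = 0.685; −0.090 without WT replicate 1), a level that does not report the amino acid exchange. The number of arrays limits the precision of every value given here.

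Cells build cholesterol from acetyl-CoA by way of mevalonate, the isoprenoid diphosphates, squalene and a chain of sterols. When the endoplasmic reticulum runs short of sterol, Scap carries SREBP-2, the product of Srebf2, to the Golgi, where the site-1 and site-2 proteases cut free a transcription factor that turns on most of the enzyme genes, Srebf2 and Insig1. When sterol is plentiful, the Insig proteins hold Scap back in the endoplasmic reticulum. The epithelium of the small intestine both makes and absorbs cholesterol, and is known to raise synthesis when the uptake of sterols or bile acids is blocked.

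One array stood apart for these genes. WT replicate 1 had the highest level of the 14 arrays for 16 of the 17 measured enzymes, for Stard4 and for 3 of the 8 control genes (Srebf2, Insig1 and Erlin1). Over all 18010 genes it was the highest array for 7.82%. The single enzyme highest elsewhere was Ggps1, which makes geranylgeranyl diphosphate on a side branch and peaked on K289R replicate 6. Comparisons of the members are given with and without WT replicate 1, as had been set in advance with earlier results of these data known.

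In the early, mevalonate part of the pathway, Hmgcs1, the synthase that forms HMG-CoA, had a log2 level of 11.71 on WT replicate 1 and of 10.42 to 10.71 on the other 6 WT arrays. The gap to the mean of those 6 was 1.09, or 2.13-fold. Fdps, which makes farnesyl diphosphate, was at 11.12 against 9.92 to 10.23 (2.07-fold). The kinases Mvk and Pmvk and the decarboxylase Mvd, which turn mevalonate into isopentenyl diphosphate, were 1.69, 1.45 and 1.66 times the mean of the other WT arrays.

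The gap was widest at Sqle, Cyp51 and Fdft1, in the squalene and sterol part of the pathway. Sqle, the squalene epoxidase, was at 10.98 on WT replicate 1 and between 8.93 and 9.45 on the other WT arrays, a gap of 1.73 or 3.32-fold. Cyp51, which removes a methyl group from lanosterol, was at 10.50 against 8.55 to 8.97 (3.22-fold). Fdft1, the squalene synthase, was at 11.70 against 9.96 to 10.42 (2.95-fold). Ranked by the excess of WT replicate 1, Sqle, Cyp51 and Fdft1 held the places 13, 14 and 17 among all 18010 genes. Msmo1 and Nsdhl, which act together in stripping methyl groups from sterols, were 2.47 and 2.18 times the mean of the other WT arrays, with Msmo1 in place 26. Lss, Hsd17b7 and Tm7sf2 were 1.84, 1.83 and 1.81 times that mean. In all, 7 of the 17 enzymes exceeded the mean of the other WT arrays by at least 1 on the log2 scale, a size that 44 of the 18010 genes (0.244%) reached.

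The late steps moved less. Dhcr7, whose enzyme completes cholesterol, was 1.36 times the mean of the other WT arrays, and Ebp, the sterol isomerase, 1.13 times. Sc5d, the lathosterol desaturase, lay 0.27 above them on the log2 scale. Over the 17 enzymes the excess ran from 0.12 (Ggps1) to 1.73 (Sqle) with a median of 0.87, and over the 8 control genes from −0.11 (Mbtps1) to 0.80 (Insig1) with a median of 0.25. The median over all genes was −0.0059.

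**Figure D1:**
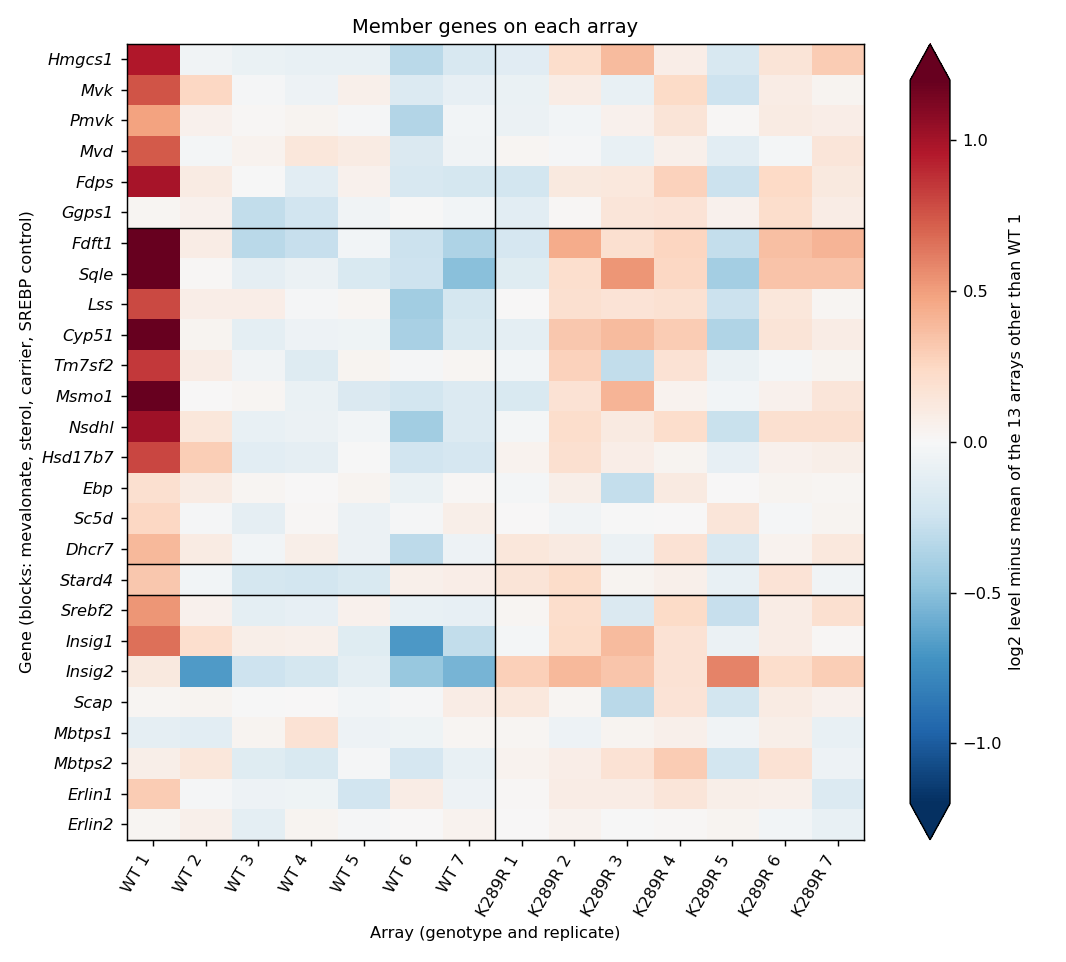
Log2 level of each of the 26 measured genes (rows, in blocks of mevalonate enzymes, squalene and sterol enzymes, Stard4 and SREBP control genes) on each of the 14 arrays (columns), minus the mean of that gene over the 13 arrays other than WT replicate 1; the scale is cut at both ends. The column of WT replicate 1 is red through nearly all enzymes, most deeply at Fdft1, Sqle, Cyp51 and Msmo1, while Insig2 is blue in WT replicates 2 to 7 and red in every K289R array.

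Other genes also marked WT replicate 1. Its largest excess over the other WT arrays was in Fabp6 (5.72), the ileal bile acid binding protein, followed by Slc10a2 (4.11), the ileal bile acid transporter. Of 6 listed genes of the distal small intestine, 5 were measured, and 4 of the 5 were highest on this array. The other, Fgf15, was at 7.31 there and ran from 7.19 to 10.56 on the remaining arrays. The mean log2 level of the 5 genes was 10.04 on WT replicate 1, 7.39 to 8.68 on the other WT arrays and 7.41 to 9.77 on the K289R arrays. Their part in the enzyme levels was not tested. Fabp6 was above a log2 level of 8 on 3 further arrays, WT replicate 6 (9.18), K289R replicate 2 (10.71) and K289R replicate 7 (9.91), and between 6.09 and 6.63 on the remaining 10. WT replicate 6 was the lowest of the 14 arrays for 9 of the 17 enzymes. Set against the mean of the 13 arrays other than WT replicate 1, the median enzyme deviation was −0.23 on WT replicate 6, 0.18 on K289R replicate 2 and 0.086 on K289R replicate 7. The mean of the 9 mature enterocyte markers was lowest on WT replicate 1 (12.82). Fabp1, Lct and Apoa4 were lowest there, Sis and Mep1a highest, and the other 4 within the range of the other arrays.

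Whether the pathway rose and fell together from mouse to mouse was described by the correlation of each gene with Hmgcs1 over the arrays. The 3 genes of all 18009 that followed Hmgcs1 most closely were Sqle, Msmo1 and Cyp51, and they held ranks 1, 2 and 3 both with and without WT replicate 1. With all 14 arrays, r reached 0.7 for 14 of the other 25 measured members, against 0.489% of all genes. Without WT replicate 1 it did so for 8 of the 25, against 1.45% of all genes. The points are arrays of whole tissue, so genes of 1 cell type share its abundance, and the 14-array values lean on a single array. Arrays of both genotypes are pooled, so a difference between genotypes enters r as well.

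Among all pairs of the 17 enzymes, 87 of 136 (64.0%) had r of at least 0.7 over the 14 arrays, with a median r of 0.80, against 1.38% of all pairs of tested genes. Without WT replicate 1 the count was 36 of 136 (26.5%), with a median of 0.50, against 1.77% of all pairs. The 8 control genes had no such pair among 28 in either case, and their median r was 0.10 and 0.12. Across the sets, Insig1 and Srebf2 each had r of at least 0.7 with 12 of the 17 enzymes, highest with Lss (0.90) for Insig1 and with Mvk (0.89) for Srebf2. With WT replicate 1 left out these counts were 7 for Insig1 and 5 for Srebf2, and Mbtps2 reached 6, highest with Cyp51 (0.83).

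Sqle had r = 0.97 and Spearman's rho = 0.96 with Hmgcs1 over 14 arrays (permutation p = 2e-05 and 1e-05, adjusted over 18009 relations 0.0515 and 0.045). Without WT replicate 1, r was 0.92 and rho 0.95 (p = 3e-05 and 2e-05, adjusted 0.103 and 0.195). Leaving out WT replicate 1 and K289R replicate 3, the 2 arrays farthest from the median of Hmgcs1, left r at 0.89. Msmo1 had r = 0.96 and rho = 0.93 (p = 1e-05 for both, adjusted 0.045), and r = 0.90 without WT replicate 1 (p = 2e-05, adjusted 0.103). For Cyp51 the values were r = 0.96 and rho = 0.95 (p = 1e-05 for both, adjusted 0.045), and r = 0.89 without that array (p = 0.00012, adjusted 0.114). Both stayed at 0.86 or above without the 2 farthest arrays, at 0.87 for Msmo1 and 0.86 for Cyp51.

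With 100000 resamples, the smallest permutation p is 1e-05, and 4 of the 18009 genes (0.0222%) passed an adjusted p of 0.05 over the 14 arrays. Of these, 3 were members: Cyp51, Msmo1 and Nsdhl (r = 0.94). With 5000000 resamples, a number chosen after seeing the data, 8 genes (0.0444%) passed, and 6 of them were members: Sqle, Msmo1, Cyp51, Nsdhl, Fdft1 (r = 0.94) and Lss (r = 0.91), the lanosterol synthase. Over the 14 arrays, 16 of the 25 members had an unadjusted p below 0.05 and a positive r, as did 2.97% of all genes. Without WT replicate 1, no gene passed the permutation test with 100000 resamples, although 1218 genes (6.76%), among them 11 of the 25 members, had an unadjusted p below 0.05 and a positive r. With 5000000 resamples, 1 gene (0.00555%) and no member passed without that array, and Msmo1 came closest among the members at an adjusted p of 0.054.

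**Figure D2:**
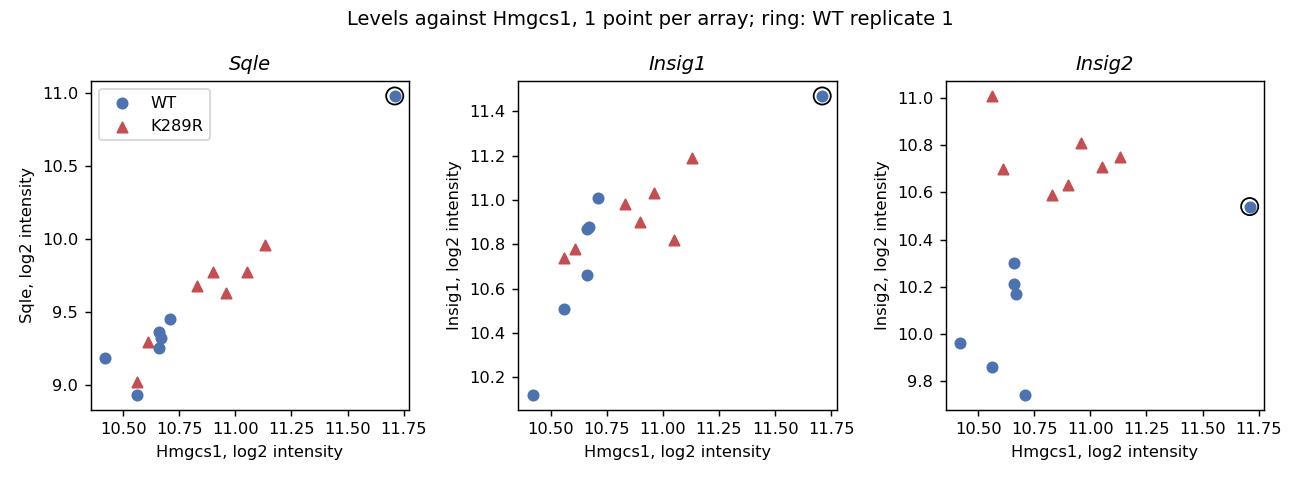
Log2 level of Sqle, Insig1 and Insig2 (vertical axes) against that of Hmgcs1 (horizontal axes), 1 point per array, WT as blue circles and K289R as red triangles, with WT replicate 1 ringed. Sqle climbs with Hmgcs1 along 1 line through both genotypes (r = 0.97, and 0.92 without the ringed array), Insig1 does so with more scatter (r = 0.83 and 0.76), and for Insig2 all K289R points lie above all WT points at any level of Hmgcs1.

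The enzymes between these were graded. Fdps (r = 0.91, and 0.76 without WT replicate 1), Lss (0.91 and 0.77), Fdft1 (0.94 and 0.85) and Nsdhl (0.94 and 0.84) kept r above 0.7 in both cases. Mvk (0.79 and 0.41), Mvd (0.78 and 0.28) and Dhcr7 (0.73 and 0.52) were above 0.7 only with WT replicate 1, and so were Pmvk (0.83 and 0.60) and Hsd17b7 (0.87 and 0.64), the ketosteroid reductase of the demethylation steps. Tm7sf2, a sterol reductase, fell from r = 0.67 to 0.0048 when WT replicate 1 was left out. Ggps1 (0.35 and 0.50), Ebp (0.25 and −0.22) and Sc5d (0.52 and −0.15) reached 0.7 in neither.

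Of the control genes, Insig1, itself a target of SREBP, followed Hmgcs1 best (r = 0.83 and rho = 0.87, permutation p = 0.00025 and 0.00015, adjusted 0.196 and 0.15), with r = 0.76 without WT replicate 1 and 0.70 without the 2 farthest arrays. Srebf2, which encodes SREBP-2, had r = 0.74, and 0.45 without WT replicate 1. Mbtps2, the site-2 protease, had r = 0.46 and 0.61. Insig2 (0.38 and 0.51), Scap (−0.060 and −0.18), Mbtps1, the site-1 protease (−0.30 and −0.013), Erlin1 (0.50 and 0.059) and Erlin2 (−0.072 and −0.26), both cholesterol-binding proteins of the endoplasmic reticulum, reached 0.7 in neither. Stard4, which carries cholesterol between membranes, had r = 0.54 and 0.25. Levels were also taken as deviations from the genotype means, without WT replicate 1. The r with Hmgcs1 was then 0.68 for Insig1, 0.34 for Srebf2, 0.47 for Mbtps2 and −0.12 for Insig2. For Scap, Mbtps1, Erlin1, Erlin2 and Stard4 it was −0.15, −0.019, −0.31, −0.28 and −0.14.

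**Figure D3:**
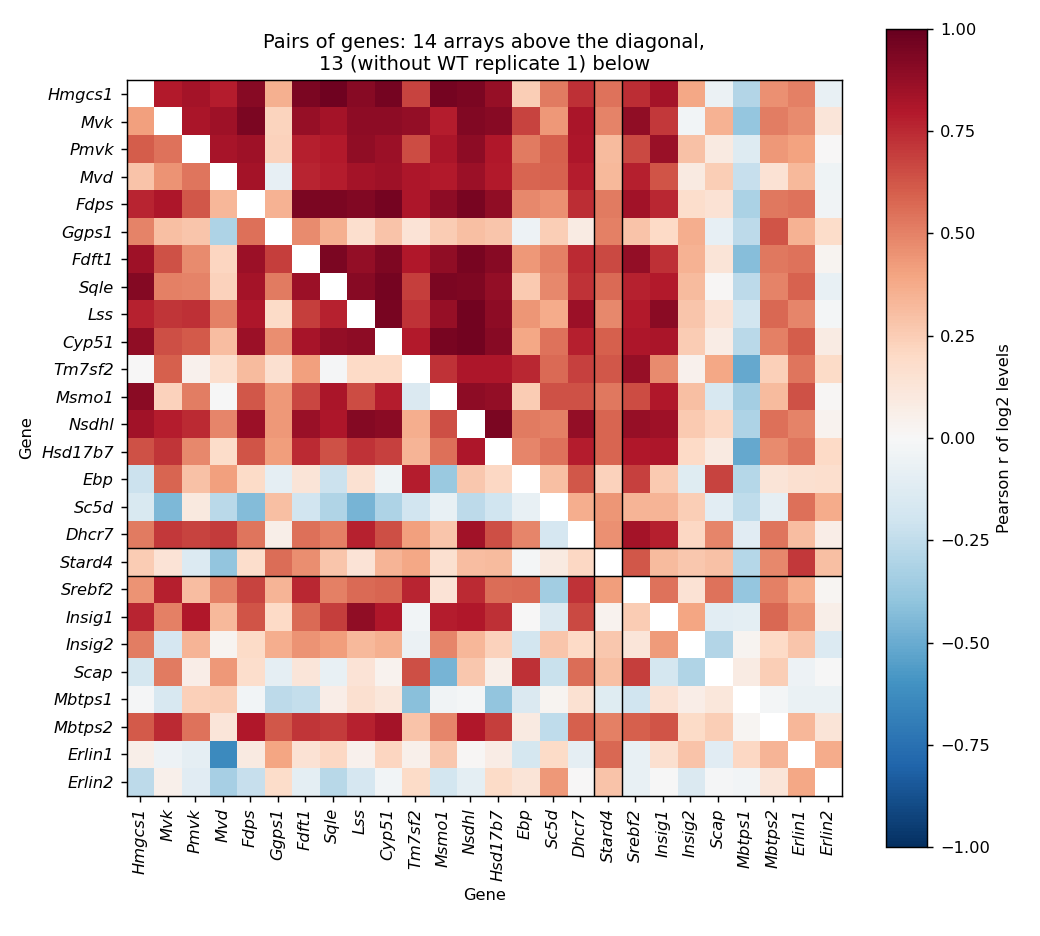
Pearson r of log2 levels for every pair of the 26 measured genes, over 14 arrays above the diagonal and over 13 arrays without WT replicate 1 below it; red is positive, blue negative, and lines separate enzymes, Stard4 and control genes. The dark red block of enzymes above the diagonal holds 87 of 136 pairs at r of at least 0.7, and 36 pairs below it do so, around Hmgcs1, Fdps, Fdft1, Sqle, Lss, Cyp51 and Nsdhl. Above the diagonal, Ggps1, Ebp and Sc5d are paler than the other enzymes, and of the control genes Insig1 and Srebf2 are red along the enzymes. Below it, Mvd and Tm7sf2 are mostly pale too. There Insig1, Mbtps2 and Srebf2 reach r of at least 0.7 with 7, 6 and 5 of the 17 enzymes.

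The 10 genes outside the members with the highest r with Hmgcs1 over 14 arrays were Csnk1g1, Gla, Drosha, Ccser1, Aacs, Acaca, Gsr, Znrf2, Mmab and Ywhaz, from 0.91 down to 0.80. Aacs makes acetoacetyl-CoA, the substrate of Hmgcs1, and had r = 0.85 (0.69 without WT replicate 1). Acaca, the first enzyme of fatty acid synthesis, had r = 0.85 (0.72), and Mmab, an enzyme of cobalamin metabolism whose gene lies beside that of Mvk, r = 0.82 (0.64). Drosha, the nuclear microRNA processor, had r = 0.87 (0.86) and was the 1 gene outside the members that passed with 100000 resamples (adjusted p = 0.045). Znrf2, a ubiquitin ligase, held place 4 without WT replicate 1 (r = 0.88).

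The DNA before the start sites of 4 genes that moved with Hmgcs1 or are central to the pathway is printed here with that of Insig2, because SREBP-2 acts on such promoters together with the CCAAT-binding factor NF-Y. RefSeq promoter sequences on assembly GRCm38.p6 were matched for 21 of the 28 genes by symbol, 14 of them enzymes and 7 control genes. Each line gives the 250 bases before an annotated start, 5′ to 3′ on the strand of the gene. Capitals mark exact matches to TCACNCCAC, a spelling of the sterol regulatory element, and to the CCAAT box. Both were searched on both strands, so that ATTGG in capitals is a CCAAT box of the other strand. The windows are chr13:119690101-119690350 (plus strand) for Hmgcs1, chr8:64733579-64733828 (minus strand) for Msmo1, chr5:4104698-4104947 (minus strand) for Cyp51, chr5:28071162-28071411 (plus strand) for Insig1 and chr1:121332590-121332839 (minus strand) for the most upstream of 3 annotated starts of Insig2.
Hmgcs1: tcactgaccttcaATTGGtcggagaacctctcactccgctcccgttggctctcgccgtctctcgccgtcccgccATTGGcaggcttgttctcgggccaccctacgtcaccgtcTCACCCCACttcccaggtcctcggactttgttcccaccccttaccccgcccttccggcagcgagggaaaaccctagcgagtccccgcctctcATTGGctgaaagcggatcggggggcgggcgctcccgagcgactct
Msmo1: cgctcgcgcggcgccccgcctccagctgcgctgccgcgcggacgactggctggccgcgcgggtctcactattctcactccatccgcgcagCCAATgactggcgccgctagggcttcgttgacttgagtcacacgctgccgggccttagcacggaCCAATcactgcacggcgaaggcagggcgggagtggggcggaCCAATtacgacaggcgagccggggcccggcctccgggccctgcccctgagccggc
Cyp51: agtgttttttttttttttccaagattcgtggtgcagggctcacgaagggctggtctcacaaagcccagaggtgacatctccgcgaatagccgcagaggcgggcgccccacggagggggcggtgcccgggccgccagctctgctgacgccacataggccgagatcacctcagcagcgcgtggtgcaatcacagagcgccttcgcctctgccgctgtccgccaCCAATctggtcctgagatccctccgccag
Insig1: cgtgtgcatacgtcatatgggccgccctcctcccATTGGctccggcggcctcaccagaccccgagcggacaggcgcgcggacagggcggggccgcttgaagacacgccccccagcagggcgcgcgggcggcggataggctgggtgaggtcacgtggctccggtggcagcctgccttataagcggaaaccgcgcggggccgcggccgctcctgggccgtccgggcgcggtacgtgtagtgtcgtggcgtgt
Insig2: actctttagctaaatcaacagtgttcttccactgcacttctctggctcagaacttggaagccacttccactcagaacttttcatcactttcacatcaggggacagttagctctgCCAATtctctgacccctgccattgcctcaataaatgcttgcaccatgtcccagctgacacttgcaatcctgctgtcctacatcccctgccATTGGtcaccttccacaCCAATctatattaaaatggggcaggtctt

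Hmgcs1 had 3 CCAAT boxes, first bases at −237, −176 and −45 relative to its start, and 1 match to TCACNCCAC at −137. Msmo1 had 3 CCAAT boxes, at −160, −96 and −55, Cyp51 had 1 at −29, and Insig1 had 1 at −216. The printed Insig2 window had 3, at −136, −46 and −29, and the windows of its other 2 annotated starts had none. A CCAAT box was found for 14 of 14 enzymes, 4 of 7 control genes (Srebf2, Insig1, Insig2 and Erlin1) and 38.7% of the 13950 tested genes with a promoter sequence, any annotated start of a gene counting. The GC box GGGCGG was found for 12 of 14 enzymes, 6 of 7 control genes and 53.7% of those genes. TCACNCCAC was found for 1 of 14 enzymes (Hmgcs1), no control gene and 1.24% of the genes. As all 14 enzymes had a CCAAT box, its presence cannot be set against how they varied. These are exact matches of letters in a fixed window. A sterol regulatory element spelled otherwise was not counted, so a window without a match may still hold such an element.

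The comparison that the study was built for, K289R against WT, gave 1 member past an adjusted p of 0.05 among the 26, Insig2, which was higher in K289R. Over all genes, 8 of 18010 (0.0444%) passed, and 3 (0.0167%) were higher in K289R. With that array left out there were again 8, of which 5 (0.0278% of all genes) were higher. None of the 17 enzymes passed, with or without WT replicate 1. The signs of the enzyme differences depended on single arrays. Over 14 arrays 9 enzymes were higher and 8 lower in K289R. Leaving out WT replicate 1 gave 15 higher and 2 lower, and leaving out WT replicate 6 in its place gave 4 higher and 13 lower, with a median of −0.048, while 48.7% of all genes were above 0. With any other single array left out, 8 to 12 of the 17 were higher. Counting an unadjusted limma p below 0.05 in either direction, 2 of the 26 members reached it over 14 arrays, against 8.48% of all genes. Without WT replicate 1, 9 of the 26 did, against 8.46%. Many members varied together, so these are not counts of independent genes. In bulk tissue, fewer cells of a type and less RNA per cell cannot be told apart.

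Over all 14 arrays the differences of the 17 enzymes, K289R minus WT, ran from −0.11 (Mvd) to 0.15 (Ggps1) on the log2 scale, with a median of 0.0035. The median over all genes was −0.0039, and 48.0% of them had a difference above 0. The intervals were wide where WT replicate 1 was high. For Sqle the WT levels ran from 8.93 to 10.98 with a median of 9.32, and the K289R levels from 9.02 to 9.96 with a median of 9.68. The groups overlapped throughout, and the difference was 0.095 (95% interval −0.42 to 0.61, adjusted p = 0.927). Ggps1 alone among the enzymes had an unadjusted limma p below 0.05 (0.15, SE 0.066, limma adjusted p = 0.532), against 4.43% of all genes that had one and were higher.

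With WT replicate 1 left out, the median difference of the 17 enzymes was 0.12, against −0.0055 over all genes, of which 47.5% were above 0. An unadjusted limma p below 0.05 was reached by 7 of the 17, all higher in K289R, and by 4.33% of all genes in that direction. WT replicate 1 was the highest array for 16 of the 17 enzymes, so leaving it out by itself lowers their WT means. The enzymes also varied together (median r of pairs 0.50 without that array), so the 7 are not independent of each other. None passed after adjustment over the 18010 genes, and the lowest adjusted p among the enzymes was 0.468.

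Fdft1 had the largest of these differences. Its WT levels without WT replicate 1 ran from 9.96 to 10.42 (median 10.06) and its K289R levels from 10.05 to 10.78 (median 10.59), a difference of 0.36 (SE 0.121, 1.29-fold, adjusted p = 0.468). On 5 of the 7 K289R arrays it was above the mean of those WT arrays, and K289R replicates 1 and 5 lay within the WT range. Sqle differed by 0.34 (SE 0.130, 1.27-fold, adjusted p = 0.494), Hmgcs1 by 0.25 (SE 0.088, 1.19-fold, adjusted p = 0.491) and Cyp51 by 0.24 (SE 0.110, 1.18-fold, adjusted p = 0.574). For Nsdhl the difference was 0.20, for Msmo1 0.19 and for Ggps1 0.17. The 2 enzymes at or below 0 were Mvd (−0.011) and Ebp (−0.025). Mvk (0.010), Tm7sf2 (0.020) and Sc5d (0.037) lay close to 0, and Pmvk, Fdps, Lss, Hsd17b7 and Dhcr7 lay between 0.091 and 0.14.

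The K289R arrays were not alike. The median enzyme deviation from the mean of the 13 arrays was −0.19 on K289R replicate 5 and −0.070 on K289R replicate 1, while it was 0.086 to 0.18 on the other 5. Among WT replicates 2 to 7 it was 0.072 on WT replicate 2 and between −0.23 and −0.035 on the rest. The low K289R arrays therefore lay within the WT range. K289R replicate 5 also had the highest mean of the 7 smooth muscle markers (11.40, against 10.93 to 11.13 over the WT arrays) and the lowest mean of the 8 crypt and cycling cell markers (9.63, against 9.96 to 10.19 on WT replicates 2 to 7). K289R replicates 2, 3 and 4 were each the highest of the 13 arrays for 4 enzymes, with Hmgcs1 and Sqle highest on K289R replicate 3. Of the 14 arrays, K289R replicate 3 was the lowest for 2 enzymes and the highest for 14.4% of all genes. It had the lowest smooth muscle mean (10.88) and the second highest crypt mean (10.28). K289R replicate 5 was also the highest array for the means of the mature enterocyte (13.10), adipocyte (9.11) and hepatocyte (7.55) markers, and K289R replicate 3 for that of the T cell markers (8.69). The part of these in the enzyme levels was not tested.

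**Figure D4:**
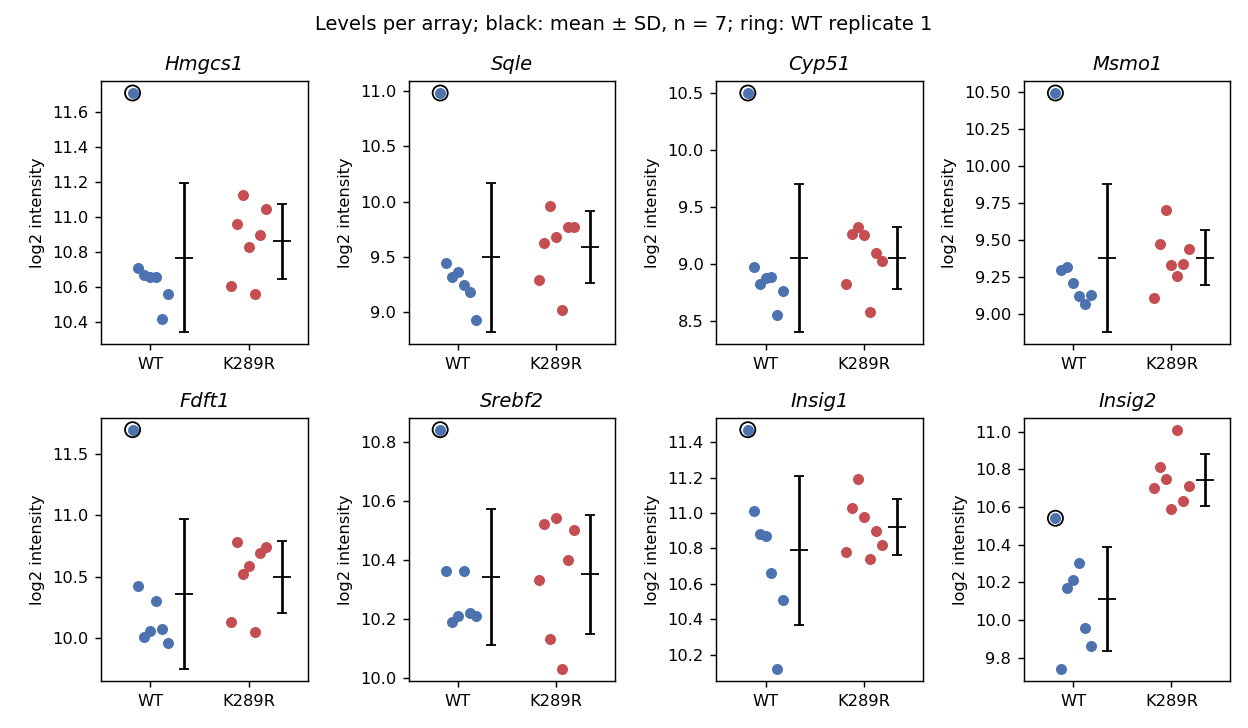
Log2 intensity of 8 genes on each array, WT in blue and K289R in red, with the mean ± SD of each group of 7 in black and WT replicate 1 ringed; each panel has its own vertical scale, which does not start at 0. In all panels but Insig2 the ringed array is the highest point and the groups overlap, and for Insig2 the 7 K289R arrays (10.59 to 11.01) lie above the 7 WT arrays (9.74 to 10.54).

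Insig2, the second of the proteins that hold Scap in the endoplasmic reticulum and one not itself driven by SREBP, rose in K289R. Its log2 level ran from 9.74 to 10.54 in WT (median 10.17) and from 10.59 to 11.01 in K289R (median 10.71). The groups did not overlap, which held for 30 of the 18010 genes (0.167%). The mean was 10.11 ± 0.28 in WT and 10.74 ± 0.14 in K289R (SD, n = 7 each), and the difference was 0.63 (SE 0.105, 95% interval 0.41 to 0.85), or 1.55-fold. The adjusted p from limma was 0.0343, and the exact 2-sided permutation p was 0.000583, the smallest that 3432 splits of 7 against 7 can give. Earlier results of these data had already shown this difference.

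WT replicate 1 had the highest Insig2 level among the WT arrays (10.54), and without it the difference was larger, 0.70 (SE 0.092, 1.63-fold, limma adjusted p = 0.00764), and the groups again did not overlap, as for 62 genes (0.344%). The adjusted p stayed below 0.05 in each of 13 fits that left out 1 more array (0.0094 to 0.0275). Starting from all 14 arrays, Insig2 passed in only 3 of the 14 fits that left out 1 array. These were the fits without WT replicate 1 (limma adjusted p = 0.00764), WT replicate 5 (0.0452) and K289R replicate 6 (0.0497). In the fits that kept WT replicate 1, the adjusted p ran from 0.0452 to 0.0984. The call was also lost when the mean of the smooth muscle markers entered the fit (0.67, adjusted p = 0.131) and without the 4 arrays with Fabp6 (0.68, adjusted p = 0.125). It held with these markers when WT replicate 1 was left out (0.71, adjusted p = 0.0471).

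Insig2 lies on chromosome 1, as does Nr5a2, with 126 tested genes between them on GRCm38.p6. Sequence on chromosome 1 that came along with the K289R allele and the allele itself cannot be told apart in this design. Of the members, Hsd17b7 is also on chromosome 1, and it differed by −0.0067 (SE 0.126). The 5 genes whose levels were most like those of Insig2 over the 14 arrays were C1galt1, Herc4, Kdm5b, Pm20d1 and Hebp1, with r from 0.86 to 0.80. Kdm5b and Pm20d1 are on chromosome 1 too. Within genotypes, taken as deviations from the genotype means, the r of these 5 with Insig2 was 0.43 to 0.59. On that measure, several members lay in or above that range: Mvd (0.61), Msmo1 (0.55), Hmgcs1 (0.48), Pmvk and Sc5d (0.47 each), Cyp51 (0.46), Lss (0.45) and Sqle (0.43). Over the 14 arrays, the r of these members with Insig2 ran from 0.090 (Mvd) to 0.38 (Hmgcs1). The within-genotype values include WT replicate 1, the highest WT array for Insig2 and for each of these members. For Hmgcs1, the within-genotype r with Insig2 was 0.48 with that array and −0.12 without it. Insig1, the other Insig gene, had r = 0.40 with Insig2.

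**Figure D5:**
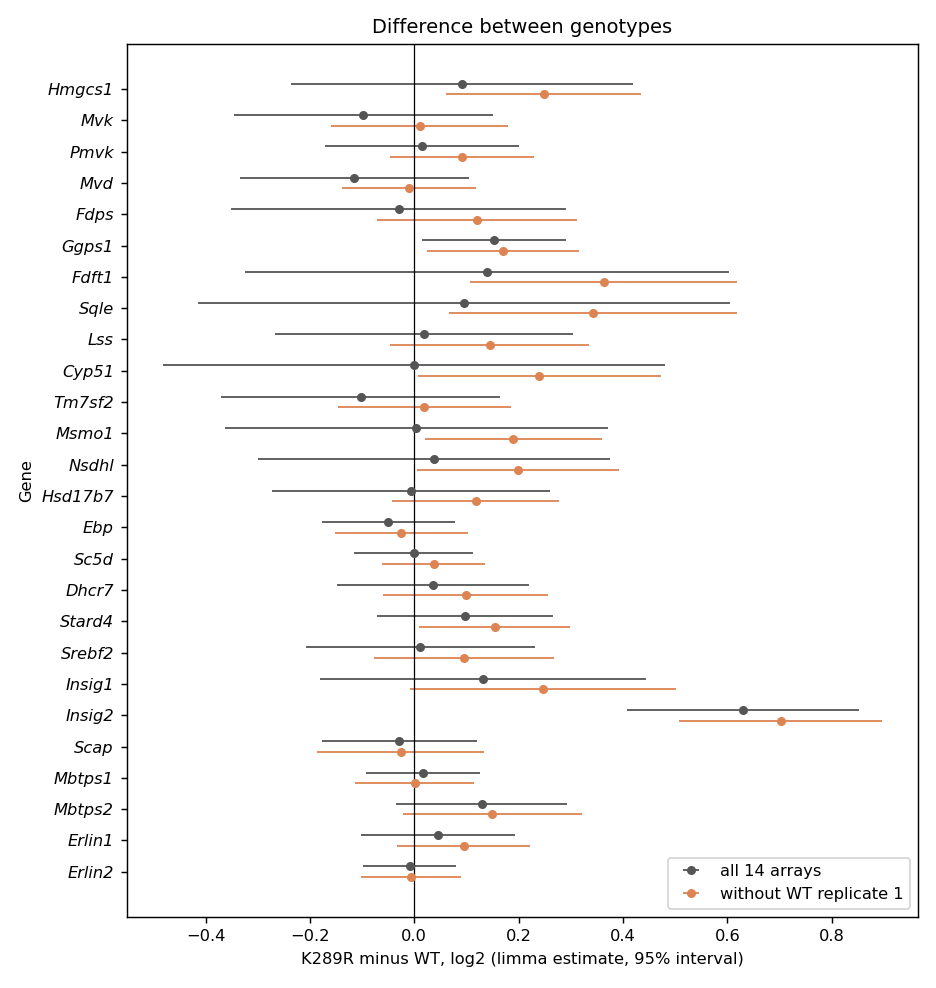
Difference of each of the 26 measured genes, K289R minus WT on the log2 scale (limma estimate with its 95% interval), over all 14 arrays in grey and without WT replicate 1 in orange; the vertical line is 0. Insig2 has the largest difference in both fits (0.63 and 0.70), though its intervals overlap those of Fdft1 and Sqle, and for most enzymes the orange point lies to the right of the grey one with a shorter interval.

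The remaining control genes gave no call. Insig1 ran from 10.12 to 11.47 in WT (median 10.87) and from 10.74 to 11.19 in K289R (median 10.90), and differed by 0.13 (SE 0.148, adjusted p = 0.813), or by 0.25 without WT replicate 1 (SE 0.120, unadjusted p = 0.0578, adjusted p = 0.598). The K289R levels fell within the WT range over 14 arrays. Leaving out WT replicate 1, the WT range ended at 11.01, K289R replicates 2 (11.03) and 3 (11.19) lay above it, and all 7 K289R arrays were above the WT mean. Srebf2 differed by 0.011 (SE 0.104) and by 0.095 without WT replicate 1 (SE 0.082), Mbtps2 by 0.13 and 0.15, Erlin1 by 0.045 and 0.095, Mbtps1 by 0.016 and 0.0005, Erlin2 by −0.0089 and −0.0063, and Scap by −0.029 and −0.026. The 95% intervals without WT replicate 1 stayed within −0.19 and 0.13 for Scap and within −0.11 and 0.11 for Mbtps1. The median of the 8 control genes was 0.031, and 0.095 without WT replicate 1. Stard4 differed by 0.097 (SE 0.080), and by 0.15 without WT replicate 1 (SE 0.068, unadjusted p = 0.0384, adjusted p = 0.558).

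Genes linked to the pathway were read from 6 further lists, and no gene of any list passed an adjusted p of 0.05 in either fit, where 0.0444% of all genes did. Of 11 tested genes of the degradation machinery that works with Insig, 2 had an unadjusted p below 0.05 in each fit, against 8.48% of all genes over 14 arrays and 8.46% without WT replicate 1. Syvn1, a ubiquitin ligase, was at 10.37 in WT and 10.11 in K289R (−0.26, SE 0.081, limma adjusted p = 0.392), and below the WT mean on all 7 K289R arrays. With WT replicate 1 left out it differed by −0.23 (SE 0.082, limma adjusted p = 0.491). Ufd1, a cofactor of the segregase Vcp, differed by 0.12 (SE 0.052, adjusted p = 0.525), and Sel1l, the partner of Syvn1, by −0.093 (SE 0.046, adjusted p = 0.604).

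Of 9 genes for partners and turnover of SREBP, Nfya, a subunit of the CCAAT-binding factor NF-Y, had the lowest p. It was at 9.78 in WT and 9.48 in K289R (−0.30, SE 0.078, limma adjusted p = 0.273), and no K289R array was above the WT mean. It differed again by −0.30 without WT replicate 1 (SE 0.084, adjusted p from limma 0.361). Srebf1, which encodes SREBP-1, differed by −0.11 (SE 0.074, adjusted p = 0.698), and the coactivator Crebbp by 0.041 (SE 0.039, adjusted p = 0.777). None of these 9 had a positive r of at least 0.7 with Hmgcs1. The r with Hmgcs1 was −0.62 for Srebf1 (−0.70 without WT replicate 1), −0.17 for Nfya (−0.55) and 0.073 for Crebbp (0.094).

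The 11 sterol-responsive genes outside the pathway had a median difference of 0.049, and of 0.087 without WT replicate 1. Aldoc, a glycolytic aldolase, differed by −0.12 (SE 0.068), Acly, which supplies acetyl-CoA, by 0.16 (SE 0.102; 0.23 without WT replicate 1), and Rdh11, a retinol dehydrogenase, by −0.082 (SE 0.058), with limma adjusted p from 0.64 to 0.699. In 3 of the 11, r with Hmgcs1 was at least 0.7 over 14 arrays, against 0.489% of all genes: Mmab, Acly and Acss2, the cytosolic acetyl-CoA synthetase. With WT replicate 1 left out, 1 of the 11 reached it, against 1.45% of all genes, namely Acly (0.72), with Mmab at 0.64 and Acss2 at 0.60. In 7 other substrates of the site-1 and site-2 proteases, the lowest p was that of Creb3l4 (0.13, SE 0.070, adjusted p = 0.609), followed by Creb3l1 (0.14, SE 0.087) and Atf6b (−0.087, SE 0.059). Of these 7, 5 were higher and 2 lower in K289R, or 4 and 3 without WT replicate 1.

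Of 10 tested users of farnesyl and geranylgeranyl diphosphate, 7 were lower and 3 higher in K289R in both fits, with a median of −0.040, and of −0.018 without WT replicate 1. Rabggta, a subunit of the Rab geranylgeranyl transferase, differed by −0.11 (SE 0.066), Pdss2, of coenzyme Q synthesis, by −0.073 (SE 0.060) and Dolk, the dolichol kinase, by −0.053 (SE 0.045). Of 6 tested genes of oxysterol synthesis and sterol esterification, 5 were lower and 1 higher in both fits. Sult2b1, a sterol sulfotransferase, differed by −0.13 (SE 0.064), Cyp7b1, an oxysterol hydroxylase, by 0.16 (SE 0.088) and Osbp, the oxysterol-binding protein, by −0.065 (SE 0.055), with limma adjusted p from 0.60 to 0.748.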

How the data were processed

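RNA from 14 jejuna, 1 array each, was amplified and labelled with a whole-transcript kit, per the labels' protocols, and Affymetrix Expression Console was used, per the submitters' processing notes. The sources used here do not give its version, summarisation or normalization. The deposited table holds linear intensity values for 41345 probe sets (array medians 168 to 174), although log2 values had been planned for, so the values were log2-transformed and not normalized again. Arrays on a shared scale cannot show a global change in RNA, and background left in the values shrinks the differences of dim genes. Probe sets with 1 symbol in the platform annotation gave 22180 genes (brightest probe set per gene), and the 18010 with a mean at or above a log2 level of 6.25, the 25th percentile over all probe sets, were tested. Of the 26 members with a probe set, all passed this filter.

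Genotypes were compared with limma 3.58.1 (lmFit and eBayes, R 4.3.3), with p-values adjusted by Benjamini-Hochberg over all 18010 genes and a threshold of 0.05. Correlations with Hmgcs1 were tested by 2-sided permutation over arrays (100000 resamples, numpy 2.4.6), adjusted over 18009 relations. The exact permutation test of Insig2 used scipy 1.17.1. Both procedures were tested on simulated data. No 2 arrays were duplicates (pairwise r 0.984 to 0.993). Same-numbered arrays did not deviate together (r −0.15 to 0.17), so replicate numbers were not used as pairs. Named were all members, up to 3 genes per pathway list with the lowest p, the 10 genes most like Hmgcs1, the 5 most like Insig2, and Nr5a2. The members, lists and tests were chosen with earlier results of these data known. Fabp6, Slc10a2 and the arrays singled out were named after their values were seen. Alternatives tried were other filters, normalizations, probe set rules, a smooth muscle covariate, a replicate block and arrays left out.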

Additional observations from a re-analysis of the deposited data

Results flagged for a closer look

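Dixon's test on the levels of the 26 measured members in each genotype flagged an outlying array in 15 of 52 groups of 7, where chance flags about 1 in 20. In 11 of the 15 it was WT replicate 1 as the highest WT array, in 10 enzymes and Srebf2. The log2 levels of WT replicate 1 were 11.71 for Hmgcs1, 9.19 for Mvd, 11.12 for Fdps, 11.70 for Fdft1, 10.98 for Sqle and 9.48 for Lss. For Cyp51, Tm7sf2, Msmo1, Nsdhl and Srebf2 they were 10.50, 9.73, 10.49, 11.07 and 10.84.

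The other 4 were all K289R arrays. K289R replicate 5 was the lowest of its genotype for Lss (8.43) and the highest for Sc5d (11.66). K289R replicate 3 was the lowest for Ebp (9.95) and K289R replicate 7 the lowest for Erlin1 (10.25). The groups of different genes come from the same arrays and are not independent of each other.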

How the results depend on the processing

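For K289R against WT, the direction of Insig2 held in every fit run, and no other member passed an adjusted p of 0.05 in any. The replicate block left 0 genes and no member (Insig2 0.63, adjusted p = 0.0941), and 3 genes, Insig2 among them, without WT replicate 1 (adjusted p = 0.0446). The labels do not say that same-numbered mice were paired, and same-numbered arrays did not deviate together. With the mean of the smooth muscle markers in the fit, no member passed (Insig2 0.67, adjusted p = 0.131). Without the 4 arrays with Fabp6, 5 genes and 0 members passed (Insig2 0.68, adjusted p = 0.125), the same fit serving with and without WT replicate 1. The median difference of the 17 enzymes was 0.061 without those 4 arrays. With the trend and robust options, 17 genes passed without WT replicate 1. Leaving out 1 array gave 4 to 14 genes, 0 to 1 members and an Insig2 difference of 0.57 to 0.70, or, without WT replicate 1, 5 to 13 genes and 0.64 to 0.75. Of the 26 members, 15 changed sign in at least 1 of 23 alternatives. The number above 0 (16) was lowest, at 10, without WT replicate 6 and highest, at 22, without WT replicate 1.

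The number of members that followed Hmgcs1 (3) became 6 with 5000000 resamples, with each array shifted to 1 median and with the filter at the median. It became 0 with no filter, with Sqle as the reference gene, for deviations from the genotype means, without the 2 farthest arrays and, with 5000000 resamples, without WT replicate 1. Leaving out 1 array gave 0 to 5. Such counts turn on the smallest p that 100000 resamples give.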
